A study of Mus musculus with 4 samples.

Results

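The genes described here are the nuclear genes for the subunits of oxidative phosphorylation, taken from the raw count table by symbol: Nduf a, b, c, s and v genes for complex I, Sdh a to d for complex II, Uqcr for complex III, Cox 4 to 8 for complex IV and Atp5 for complex V. The symbol rule matched 85 genes, and leaving out Cox6a2 gave 84 members of 27179 genes in the table. Of these, 37 belong by symbol to complex I, 4 to complex II, 9 to complex III, 17 to complex IV and 17 to complex V. Subunits with other symbols are missed, among them Ndufab1 of complex I and Cyc1 of complex III. Counts, medians and sums by complex therefore cover matched genes only. The rule takes in 2 pseudogenes, Uqcrh-ps1 and Atp5c1-ps, and a few proteins that are not subunits of the complex in their name, such as Ndufa4, now counted with complex IV, and Cox7a2l, a factor that holds complexes III and IV together.

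The cells were plasmacytoid dendritic cells (pDCs), immune cells known for secreting type I interferon after sensing viral nucleic acid. They were grown from bone marrow precursors of C57BL/6 mice in 8 days of culture with Flt3 ligand, stimulated for 24 h with 1 µg/ml imiquimod, a ligand of the RNA sensor TLR7, and sorted with SiglecH and CD11b. Of 4 RNA-seq libraries, 2 came from cells positive for a blue fluorescent protein (BFP) that marks Cxcl10 expression and 2 from BFP-negative cells of the same treatment, so every group carries the stimulation and no unstimulated cells are compared. The titles of both replicates 1 carry the code REX550 and those of both replicates 2 the code REX556, with no word on what a code marks. The labels give no genotype beyond the strain, no BFP gate and no account of whether replicates 1 and 2 are separate mice or cultures, so that p-values measure the spread between these libraries only.

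Oxidative phosphorylation moves electrons from NADH and succinate through complexes I, II, III and IV of the inner mitochondrial membrane to oxygen, and the proton gradient that complexes I, III and IV build drives ATP synthesis by complex V. Most of its subunits are encoded in the nucleus and imported, while a small core is encoded by mitochondrial DNA. In dendritic cells, activation by Toll-like receptor ligands is known to be accompanied by changes in the balance between glycolysis and mitochondrial respiration. Promoters of the nuclear subunit genes are known for sites of the factors NRF1, GABP (an ETS-family factor) and YY1.

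Promoter sequence was available for 68 of the 84 members from RefSeq (GRCm38.p6), as windows of 300 bases from 250 before to 50 after the start of transcription. In each window 3 motifs were searched on both strands: GCGC and TGCGC with any 1 base between them for an NRF1-type site, CCGGAAG for an ETS-type site and AAGATGGC for a YY1-type site. None of these letter strings contains another. The 4 stretches shown lie upstream of genes on the minus strand, outside the gene as RefSeq and GENCODE annotate it. They belong to the members with the smallest p in the comparison of the groups, Uqcrfs1 at chr13:30545363-30545566 and Atp5g1 at chr11:96075695-96075881, and to 2 members with several NRF1-type matches, Sdha at chr13:74350281-74350490 and Cox6a1 at chr5:115348982-115349208. Capitals mark motif matches, and each stretch reads 5′ to 3′ toward the gene.
Uqcrfs1: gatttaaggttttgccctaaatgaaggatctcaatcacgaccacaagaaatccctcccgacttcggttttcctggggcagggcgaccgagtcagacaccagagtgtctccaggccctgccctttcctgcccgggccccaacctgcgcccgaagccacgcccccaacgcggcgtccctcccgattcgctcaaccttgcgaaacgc
Atp5g1: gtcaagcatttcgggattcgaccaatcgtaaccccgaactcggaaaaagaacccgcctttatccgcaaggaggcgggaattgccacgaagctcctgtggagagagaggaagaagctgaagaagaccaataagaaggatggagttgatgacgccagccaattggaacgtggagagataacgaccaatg
Sdha: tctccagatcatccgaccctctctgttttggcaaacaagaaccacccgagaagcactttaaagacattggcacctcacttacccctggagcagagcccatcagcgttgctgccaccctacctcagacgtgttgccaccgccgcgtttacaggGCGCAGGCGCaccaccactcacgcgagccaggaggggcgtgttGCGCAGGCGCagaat
Cox6a1: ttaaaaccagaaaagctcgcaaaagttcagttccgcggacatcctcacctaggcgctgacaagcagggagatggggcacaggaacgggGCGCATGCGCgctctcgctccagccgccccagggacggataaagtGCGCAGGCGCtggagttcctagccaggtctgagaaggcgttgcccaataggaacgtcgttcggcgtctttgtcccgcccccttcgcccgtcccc

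Uqcrfs1 and Atp5g1 held none of the 3 motifs in the whole window. In Sdha the capitals begin 98 and 55 bases before the start, and the third NRF1-type match, from base 10 to base 1 before it, is outside the stretch shown. Cox6a1 held NRF1-type matches from base 162 to 153 and from base 117 to 108 before the start, and an ETS-type match from base 16 to 10 outside the stretch. Shares are of genes, and a gene with more than 1 window counted once if any of its windows held the motif. Over the 68 members, the NRF1-type motif was found in 17 (25%), against 12.4% of 9005 tested genes and 7.04% of 18458 genes of the count table. The YY1-type motif was found in 10 members (14.7%), against 5.72% and 3.53%. For the ETS-type motif the share was 23.5% (16 members), beside 21.99% of tested genes and 12.7% of genes in the table. At least 1 of the 3 was present in 37 members (54.4%) and in 35.1% of tested genes.

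Matches in members were also counted by position and by complex, and no difference in these counts was tested. Of 10 YY1-type matches in members, 8 lay wholly after the start of transcription, in the 50 bases that the window holds there. Examples are Ndufa3 (bases 23 to 30 after the start) and Ndufb8 (bases 39 to 46). Of 24 NRF1-type matches, 19 lay wholly before the start. Since 250 of the 300 bases of a window lie there, that count marks no preferred side. Positions were not counted for all tested genes. The YY1-type motif was in 7 of 32 complex I genes and 3 of 15 complex V genes with a window. It was in none of the 3, 5 and 13 such genes of complexes II, III and IV. With the motif in 5.72% of tested genes, sets of that size may well hold none. NRF1-type matches were found in 6 of 15 complex V genes, among them Atp5g2, Atp5g3 and Atp5c1, and in 1 of 13 complex IV genes, Cox6a1. The share of tested genes was 12.4%, from which 1 of 13 cannot be told apart. A match is only a run of letters, and no binding was measured.

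The library labels were checked with Cxcl10, which had 3 and 19 counts in the BFP-negative and 149 and 154 in the BFP-positive libraries. Library totals were between 11868254 and 12570117 counts. Of 11706 genes tested with edgeR's quasi-likelihood test, 890 passed as higher and 411 as lower in the BFP-positive libraries at an adjusted p under 0.05, so that 11.1% were called (7.6% higher, 3.51% lower). The pDC markers were present in both groups, with 13 of 13 tested, 3 higher and 3 lower, and a summed level of 24581 to 29218 CPM (counts in relation to the scaled library total) in BFP-negative and 20208 to 20995 CPM in BFP-positive libraries. Ly6d held most of that sum, and without it, a choice made after its values were seen, the groups overlapped at 7291 and 8271 against 7383 and 7637 CPM. Markers of conventional dendritic cells summed to 780.3 to 786 and 1044 to 1113 CPM (of 12 tested, 4 higher and 1 lower). Id2 alone held a mean of 453 and 486 CPM of that sum and was not called. By log2 fold change 11 of the 12 were positive, with a median of 0.90 and a range from -1.06 to 4.44. Those of monocytes and macrophages summed to 343 to 403 and 619 to 649 CPM (of 9 tested, 5 higher and 2 lower; Mertk and C5ar1 at 0 counts). Of these 9, 7 were positive, with a median of 1.78 and a range from -3.40 to 7.74. B cell markers summed to 121 to 123 and 94.7 to 99.6 CPM (of 4 tested, 2 lower). The log2 fold changes of those 4 ran from -9.75 to 0.005 with a median of -2.33, a wider difference than the sum gives. Neutrophil and NK cell markers summed to 16.2 to 19.1 and 16.1 to 30.8 CPM (of 4 tested, 0 called; Elane, Gzma and Eomes at 0 counts). The part of these cell types in the results below was not tested, and in sorted bulk RNA fewer cells of a type and less RNA per cell cannot be told apart.

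Of the 84 members, 78 had enough counts to be tested, and 6 did not. Those 6 were Uqcr11, the smallest subunit of complex III, with counts of 0 and 3 in the BFP-negative and 0 and 0 in the BFP-positive libraries, and 5 isoform genes of complex IV that other tissues use. Uqcr11 is known as a subunit in all tissues, and why it is listed near 0 was not tested. Cox8c and Cox7b2, isoforms known from testis, had 0 counts in every library, where a count of 0 allows up to 0.239 to 0.253 CPM (3 counts, counting error only). Cox8b, known from muscle, had 1 count in all, and Cox4i2, known from lung, had 4 counts in 1 BFP-positive library. Cox6b2 had 0 and 2 counts in the BFP-negative and 14 and 9 in the BFP-positive libraries. For 25 of the members the gene overlaps another annotated gene, and the library kit does not mark strand, so that reads from the partner cannot be told apart.

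The members were abundant transcripts. Per length, on the authors' deposited log2 RPKM scale, 14 of them stood among the 100 highest of all tested genes, and 64 stood in the top 10% of them. The highest level was that of Cox4i1, the ubiquitous isoform of subunit 4 of complex IV, with a mean of 11.77 on that scale over the 4 libraries. It was followed by Ndufa3, a membrane-arm subunit of complex I (11.03), and by the complex IV genes Cox6a1 (10.99) and Cox8a (10.81). In complex I Ndufb8, also of the membrane arm, was at 10.66, and in complex V Atp5e, a subunit of the catalytic head, was at 10.55 and Atp5g3, one of 3 genes for the same c subunit, at 10.17. Complex III was led by its small subunits Uqcrq (10.10) and Uqcr10 (10.06).

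Levels per length were unequal within a complex whose subunits assemble in fixed ratios. In complex II, Sdhb, the iron-sulfur subunit, was at a mean log2 RPKM of 9.42 and Sdhc, a membrane anchor, at 7.84. Sdha, the flavoprotein subunit that oxidises succinate, was at 6.74, and Sdhd, the other anchor, was at 4.18. Ndufs1, the largest core subunit of complex I, was at 4.22, the lowest level in that complex apart from Ndufa4l2, a paralog of Ndufa4, at -0.15. The median length that the RPKM values imply was 680 bases for 76 members and 2572 bases for 8529 tested genes, each with at least 50 counts in every library. In the plot of deposited RPKM the members of both groups lie along 1 diagonal.

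**Figure D1:**
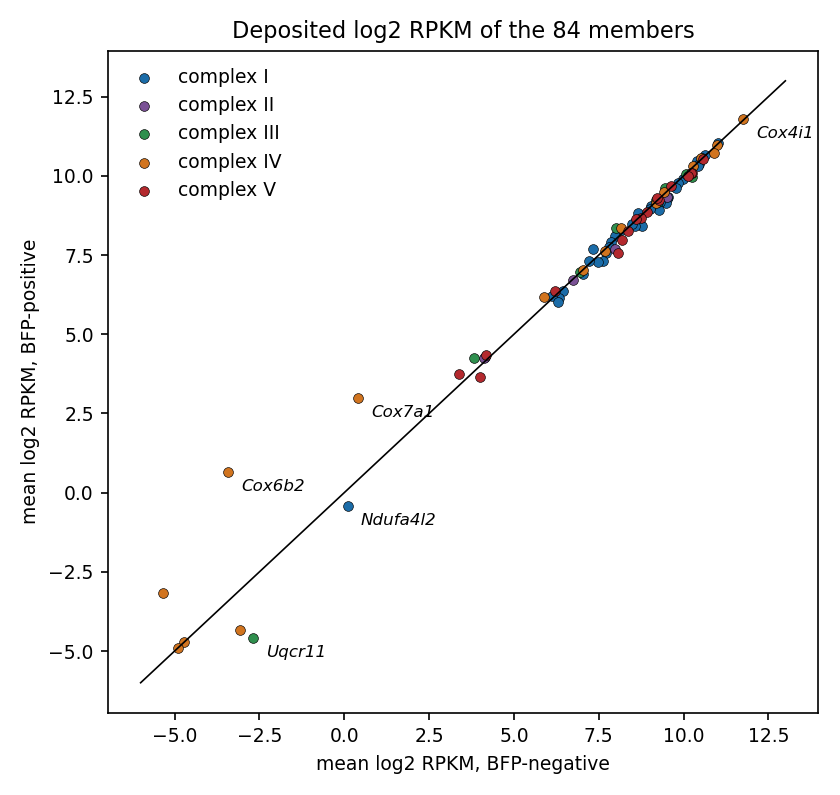
Mean deposited log2 RPKM of the 84 members in BFP-negative (x axis) and BFP-positive libraries (y axis), n = 2 libraries each, 1 point per gene coloured by complex. From Sdhd at 4.18 up to Cox4i1 at 11.77 the points lie along the diagonal, and the genes far from it at the lower left are Cox7a1, Cox6b2 and others with few counts.

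No member was called in either direction. With edgeR's quasi-likelihood test, adjusted by Benjamini-Hochberg over all 11706 genes, 0 of 78 members passed as higher and 0 as lower, where 7.6% and 3.51% of all tested genes did. Among tested genes with a mean of at least 20 CPM, a level chosen after the data were seen because members are abundant, 15.4% were called, against 0 of 73 members. At an unadjusted p under 0.05 there were 6 members (7.69%), beside 24.5% of all tested genes. Other tools called up to 2 members without a replicate block: DESeq2 called Uqcrfs1 and Atp5g1 (13.6% of all genes called), limma-voom and edgeR with robust dispersion called Uqcrfs1 (11.7% and 11.4%), and edgeR on library totals and limma on the deposited log2 RPKM called Atp5g1 (11.8% and 9%). With the replicate number as a block edgeR called 3 members, the most of any alternative, and 16.2% of all genes. With RLE factors or with no filter on low counts edgeR called 0 members, and 11.1% and 8.83% of all genes. With 1 library left out it again called 0 members, and 9.85% and 10.3% of all genes without BFP-negative replicates 1 and 2 and 7.68% and 6.94% without BFP-positive replicates 1 and 2.

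The differences were small as well as uncalled. The median log2 fold change (BFP-positive over BFP-negative) was 0.02 over the members, with quartiles of -0.09 and 0.13, and -0.02 over all tested genes. In absolute size the median was 0.11 for members and 0.36 for all genes, and 76 of 78 members (97.4%) were below 0.5 on the log2 scale, against 62.0% of all genes. Among genes with a mean of at least 20 CPM the median size was 0.27, with 75.3% below 0.5, while the 73 members at that level had a median of 0.10 and were all below 0.5. For 62 members the whole 95% interval of the fold change lay within 1.5-fold of no change, and for 74 within 2-fold. The median standard error was 0.13 for members, 0.29 for all genes and 0.19 for all genes with a mean of at least 20 CPM. Groups did not overlap in CPM for 37 members (47.4%), 22 higher and 15 lower, while 54.2% of all tested genes did so, 27.1% in each direction. At a mean of at least 20 CPM it was 33 members (45.2%) and 59.3% of genes.

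**Figure D2:**
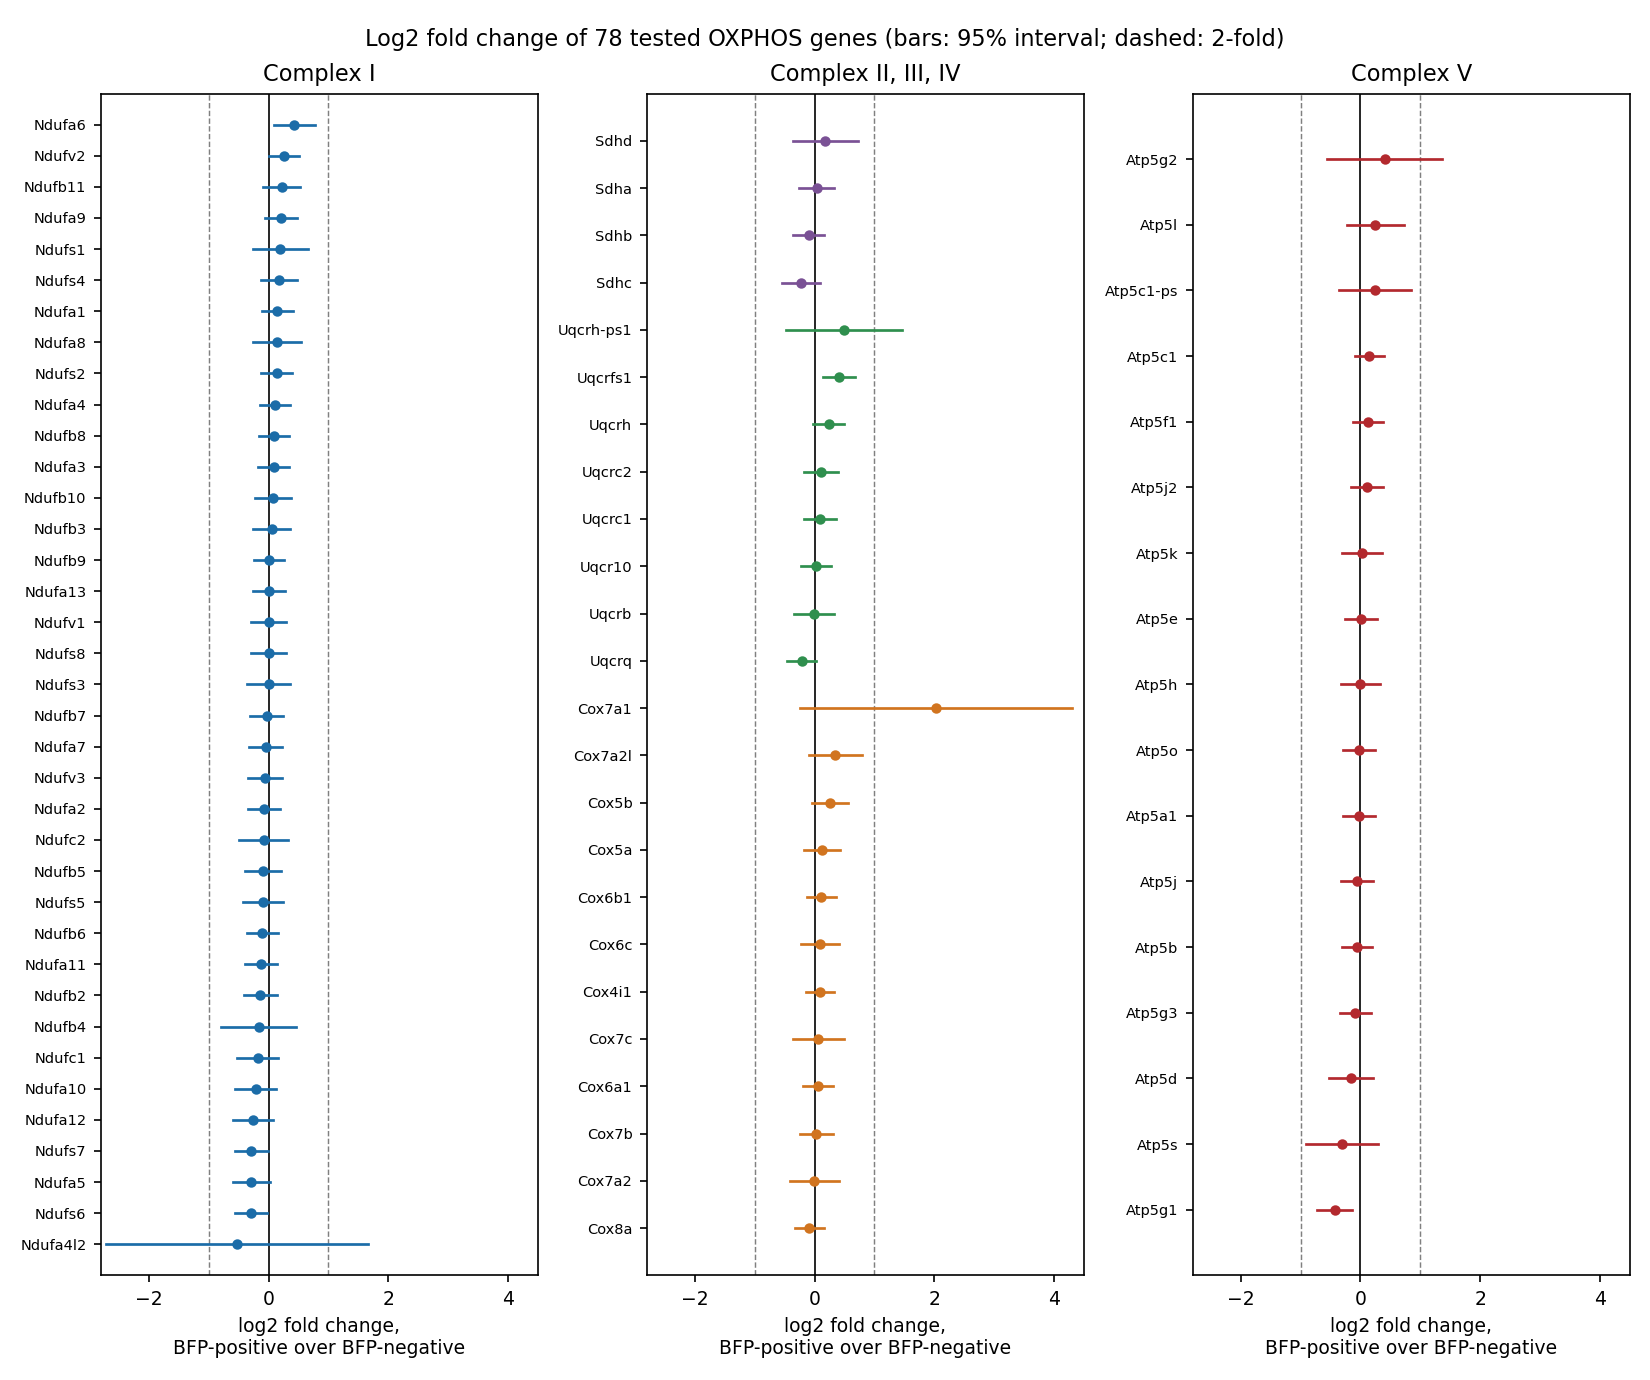
Log2 fold change of the 78 tested members (points) with 95% intervals (bars), BFP-positive over BFP-negative with 2 libraries per group, by complex; dashed lines mark a 2-fold difference. Cox7a1, at 2.03 with an interval that includes 0, stands apart from the other points, and 74 of the intervals lie within the dashed lines.

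**Figure D3:**
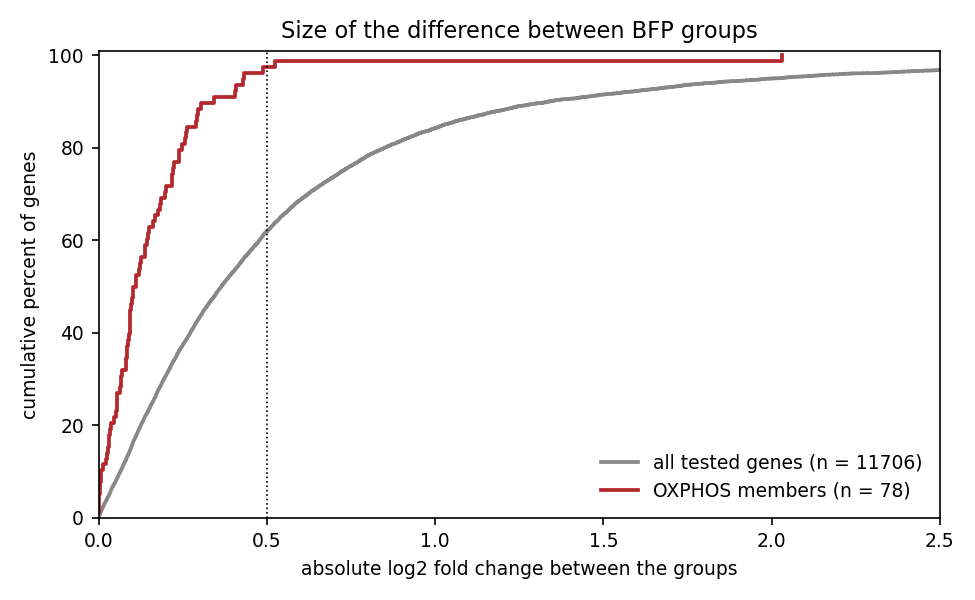
Cumulative percent of genes (y axis) by absolute log2 fold change between the groups (x axis, shown up to 2.5), for the 78 tested members and all 11706 tested genes. At 0.5, the dotted line, the members' curve is at 97.4% and that of all genes at 62.0%.

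Differences between replicates were set beside differences between group means, which are unlike measures. A group mean averages 2 libraries and so varies less than the single libraries compared within a group. The values below describe sizes and do not show whether the groups differ beyond their replicates. The median absolute difference between replicates was 0.14 on the log2 CPM scale in BFP-negative and 0.13 in BFP-positive libraries for the members, and that between group means was 0.11. For all tested genes the same medians were 0.30, 0.27 and 0.37. In 51 of 78 members (65.4%) the difference between groups was smaller than the larger of its replicate differences, as it was in 57.7% of all tested genes. In 36 members replicate 1 was the higher in both groups, in 12 replicate 2 was, and 30 members were opposite in the 2 groups, against 3276, 3396 and 5034 of all tested genes. Cox6c, Cox5a and Cox7a2 of complex IV were among those 36, as the values of Cox7a2 further on show.

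The sign of so small a shift depended on the scaling. With the TMM scaling 45 members had a positive and 33 a negative log2 fold change, and with library totals alone 32 were positive and 46 negative. The median of all tested genes moved from -0.02 to -0.09 between these scalings. The median of the members moved from 0.02 to -0.05 and that of complex I from 0.00 to -0.06. Relative to the median of all tested genes, which the change of scaling moves alike, the median of the members was 0.04 higher under both.

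In complex I, which takes electrons from NADH, 37 of 37 members were tested, 19 positive and 18 negative, with a median log2 fold change of 0.00. By module the medians were -0.03 for the NADH-oxidising N module (8 genes), 0.00 for the quinone-reducing Q module (8 genes) and -0.03 for the proton-pumping P module (19 genes). The 7 nuclear core subunits had a median of 0.00, with 6 positive. The 28 accessory subunits had a median of -0.05, with 12 positive. Ndufa6, an accessory subunit of the Q module (Entrez gene 67130, GRCm38 chromosome 15, 82350139 to 82354291, whole gene), was at 94.98 and 82.1 in BFP-negative against 119.7 and 119 CPM in BFP-positive libraries. Both BFP-positive libraries were above both BFP-negative ones, with the largest positive log2 fold change of the complex (0.43, SE 0.16, edgeR adjusted p = 0.112).

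Ndufv2, a core subunit of the N module that carries an iron-sulfur cluster and whose gene overlaps Ankrd12, was at 575 and 577 in BFP-negative against 717 and 659.5 CPM in BFP-positive libraries (log2 fold change 0.26, SE 0.11, edgeR adjusted p = 0.197). Ndufs6, an accessory subunit beside it, was at 337 and 348 against 287 and 271 CPM (log2 fold change -0.29, SE 0.12, edgeR adjusted p = 0.163). The N module thus held values apart in both directions, neither past the threshold. Ndufs7, the core subunit with the last iron-sulfur cluster before quinone, was at 497 and 567 against 455 and 416 CPM, the groups not overlapping (log2 fold change -0.29, SE 0.12, edgeR adjusted p = 0.185). Its neighbour in the Q module Ndufs8 was at 771 and 963 against 887 and 849.6 CPM, the BFP-positive pair lying between the BFP-negative values (0.00, SE 0.13). Ndufa3 was at 671 and 748 against 753 and 749 CPM, and Ndufb8 at 939 and 1073 against 1073 and 1072 CPM. In both the first BFP-negative library alone was lower.

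Ndufa4 and Ndufa4l2 are paralogs, the latter known as a hypoxia-induced gene. Ndufa4 was at 748 and 683 in BFP-negative against 775 and 758 CPM in BFP-positive libraries (log2 fold change 0.10, SE 0.11). Ndufa4l2 had 10 and 16 counts in the BFP-negative and 9 and 8 in the BFP-positive libraries, with a log2 fold change of -0.52 and an SE of 0.98. At such counts a difference of that size was not detectable.

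Complex II, succinate dehydrogenase, is the only complex of the chain that is wholly encoded in the nucleus and is also an enzyme of the TCA cycle. All 4 genes were tested, with a median of -0.03 and 0 called. Sdha was at 281 and 324 in BFP-negative against 292 and 328 CPM in BFP-positive libraries (log2 fold change 0.04, SE 0.13). In both groups replicate 2 was the higher, and the groups overlapped. Sdhb was at 725 and 797 against 745 and 681 CPM (-0.09, SE 0.12). Sdhc was at 307 and 281 against 278 and 225 CPM, just apart (-0.23, SE 0.14), and Sdhd at 21.1 and 22.6 against 24.8 and 24.8 CPM (0.18, SE 0.24).

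Complex III passes electrons from quinol to cytochrome c. Of 9 matched genes 8 were tested, 6 positive and 2 negative, with a median of 0.10. Uqcrfs1, the Rieske iron-sulfur protein and one of its catalytic subunits (Entrez gene 66694, GRCm38 chromosome 13, 30540312 to 30545316, whole gene), was at 350.0 and 319 in BFP-negative against 441 and 446 CPM in BFP-positive libraries. Both BFP-positive values were above both others and close to each other. Its log2 fold change was 0.41 (SE 0.12), 1.33-fold with a 95% interval of 1.10 to 1.60, and its edgeR adjusted p of 0.0554 was the smallest of all members and the nearest to the threshold of 0.05. The adjusted p was between 0.00874 (DESeq2) and 0.247 (edgeR without BFP-positive replicate 2) over the alternatives tried, with a log2 fold change of 0.34 to 0.48.

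Uqcrh, the hinge protein that binds cytochrome c1, was at 369.6 and 377 against 452 and 429 CPM (log2 fold change 0.24, SE 0.12, edgeR adjusted p = 0.245). Its pseudogene Uqcrh-ps1, at 5.62 and 5.28 against 8.41 and 6.91 CPM (0.49, SE 0.44), is a near copy, and reads may have been assigned to either gene. Uqcrq, which binds quinone beside cytochrome b, had lower values in BFP-positive libraries, at 587 and 597 against 519 and 499 CPM (-0.22, SE 0.11, edgeR adjusted p = 0.273). The core proteins Uqcrc1 (877 and 1025 against 982 and 1047 CPM) and Uqcrc2 (229.7 and 222 against 234 and 251 CPM) had log2 fold changes of 0.09 and 0.10.

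In complex IV, cytochrome c oxidase, 12 of 17 members were tested, 10 positive and 2 negative, with a median of 0.09 and 0 called. Cox4i1 was at 2369 and 2254 in BFP-negative against 2589 and 2315 CPM in BFP-positive libraries, overlapping (log2 fold change 0.09, SE 0.11). Cox5b was at 161 and 156 against 181 and 199 CPM (0.26, SE 0.13), Cox6b1 at 737 and 712 against 785 and 779 CPM (0.11, SE 0.11). Both had groups apart and neither passed. Cox8a was at 1034 and 981 against 982 and 916 CPM (-0.09, SE 0.11). Cox7b, at 621 and 524 against 580 and 589 CPM, overlapped as well (0.03, SE 0.12).

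Among the subunit 7a genes, Cox7a2 was at 175 and 131 in BFP-negative against 171 and 135 CPM in BFP-positive libraries (log2 fold change -0.00, SE 0.18). Replicate 1 was the higher in each group by a wider margin than separated the groups. Cox7a2l was at 75.2 and 58.8 against 96.7 and 73.3 CPM (0.34, SE 0.20), with the same order of replicates. Cox7a1, the isoform known from heart and muscle, had 16 and 2 counts in the BFP-negative and 30 and 41 in the BFP-positive libraries. Its log2 fold change of 2.03 (SE 1.02, edgeR adjusted p = 0.257) was the largest of all members. It was 1.22 with replicate 2 of the BFP-negative pair left out and 4.16 with replicate 1 left out, and the 95% interval of the fold was 0.849 to 19.7.

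Cox6a1, the general isoform of subunit 6a, was at 1019 and 1110 in BFP-negative against 1057 and 1150.3 CPM in BFP-positive libraries (log2 fold change 0.05, SE 0.11). Cox6a2, its muscle-type isoform and a known pDC marker, is not a member, and its gene overlaps Itgad. It fell in BFP-positive cells, from 203 and 199 CPM to 121 and 81.2 CPM (log2 fold change -0.99, SE 0.19, edgeR adjusted p = 0.00748). Of the CPM of both genes, Cox6a2 made up 16.6% and 15.2% in BFP-negative and 10.2% and 6.60% in BFP-positive libraries, 1 library per value. The summed CPM of the pair was 1222 and 1309 against 1178 and 1232, and these overlapped.

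Complex V, ATP synthase, had 17 of 17 members tested, 8 positive and 9 negative, with a median of -0.00. Its catalytic head gene Atp5b was at 2031 and 2105 in BFP-negative against 1829 and 2156 CPM in BFP-positive libraries, the latter pair enclosing the former (log2 fold change -0.05, SE 0.11). Atp5c1, for the rotating shaft, was at 1080.4 and 1003 against 1174 and 1136 CPM (0.15, SE 0.11). Atp5e was at 655 and 588 against 657 and 592 CPM (0.01, SE 0.12). The 5 head genes had a median of -0.03 and the 4 peripheral stalk genes one of -0.01.

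The membrane ring of ATP synthase is built from 1 mature protein, the c subunit, encoded by Atp5g1, Atp5g2 and Atp5g3. Atp5g1 (Entrez gene 11951, GRCm38 chromosome 11, 96072793 to 96075694, whole gene) was at 227 and 226 in BFP-negative against 177 and 160.3 CPM in BFP-positive libraries, with both BFP-positive values lower (log2 fold change -0.43, SE 0.13, edgeR adjusted p = 0.0649). That is a fold of 0.742 with a 95% interval of 0.606 to 0.909. Its adjusted p ran from 0.0174 with the replicate block to 0.370 without BFP-positive replicate 2. Atp5g3 was at 848 and 762 against 721 and 797 CPM, overlapping (-0.08, SE 0.12), and Atp5g2 at 8.36 and 5.13 against 10.04 and 7.82 CPM (0.41, SE 0.43).

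Summed over the 3 c subunit genes, the CPM was 1084 and 993 in BFP-negative and 907 and 966 in BFP-positive libraries. Atp5g1 contributed 21.0% and 22.8% of it in BFP-negative and 19.5% and 16.6% in BFP-positive libraries, Atp5g3 78.3% and 76.7% against 79.4% and 82.6%. The share of Atp5g1 was lower in both BFP-positive libraries, and no test was made on these shares.

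**Figure D4:**
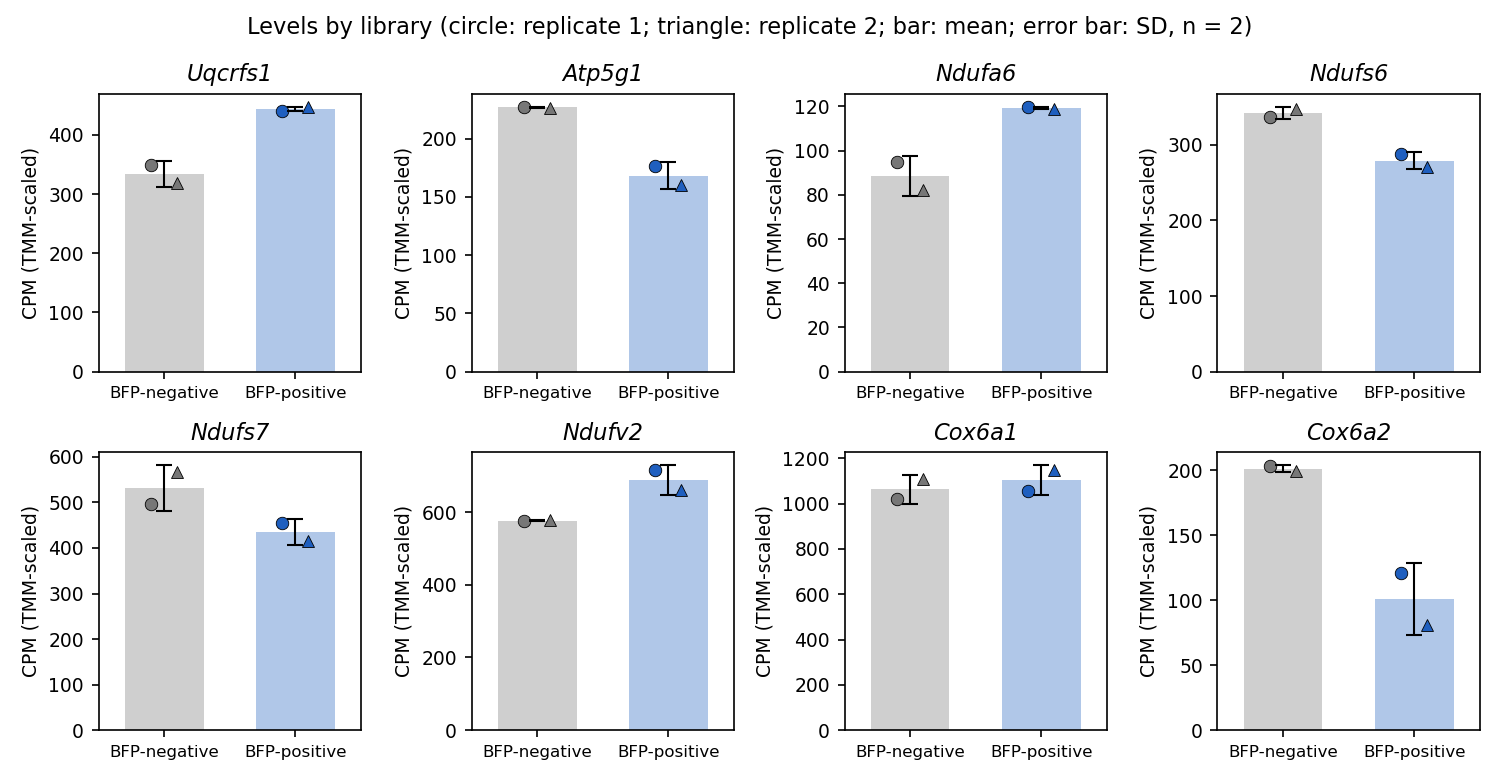
CPM (y axes, from 0) of 6 members with an unadjusted p under 0.05, of Cox6a1 and of Cox6a2, which is no member, in BFP-negative and BFP-positive libraries; circles are replicate 1, triangles replicate 2, bars the mean and error bars the SD (n = 2). Of these 8 genes Cox6a1 has overlapping groups, and Cox6a2, from 203 and 199 to 121 and 81.2 CPM, differs most.

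As a pool, the members were at nearly the same level in all libraries. Their summed CPM was 34280.4 and 33994 in BFP-negative and 35111 and 34053 in BFP-positive libraries, a mean of 34137 ± 203 against 34582 ± 748 (SD, n = 2) and a ratio of 1.01. As a share of all counts they made up between 3.31% and 3.55% of a library. By complex, the sums were 13657 and 13984 against 14302 and 13475 CPM for complex I and 1333 and 1426 against 1339.8 and 1259 CPM for complex II. Complex IV held 7479 and 6934 against 7737 and 7337 CPM, complex V 8587 and 8370.1 against 8296 and 8549 CPM. In each of these 4 complexes the groups overlapped.

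The exception was complex III, at 3223 and 3280 in BFP-negative against 3436 and 3432 CPM in BFP-positive libraries, a ratio of 1.06. Uqcrfs1 and Uqcrh, described above, were the protein-coding complex III members with the largest positive log2 fold changes. As plain shares of all counts, without TMM scaling, the complex III sums were 0.334% and 0.331% against 0.337% and 0.334%, and these overlapped.

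**Figure D5:**
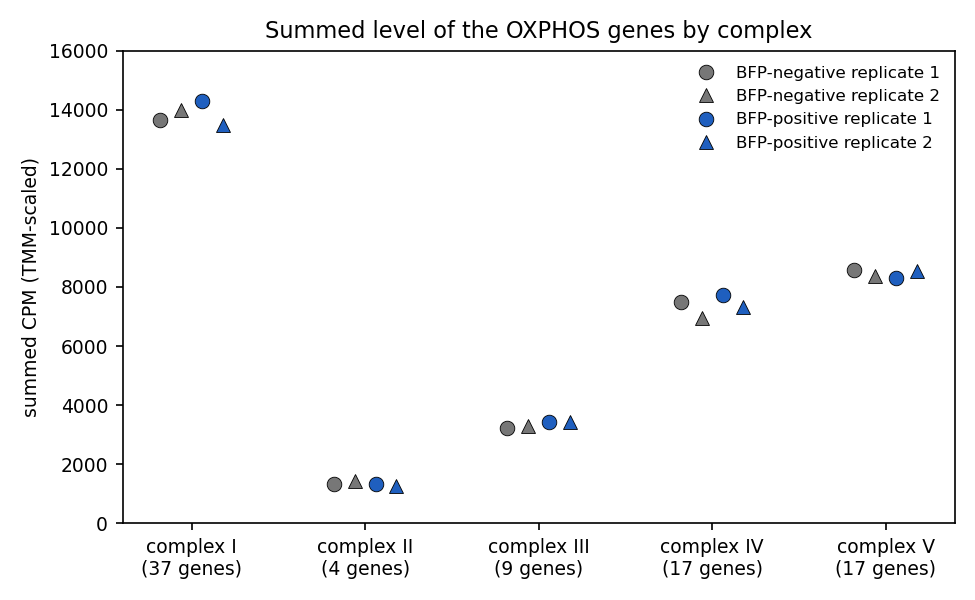
Summed CPM (y axis, from 0) of the matched members of each complex (x axis, number of genes in brackets) in each of the 4 libraries, marked by group and replicate. Complex III, at 3223 and 3280 against 3436 and 3432 CPM, has groups apart at a ratio of 1.06, and the other 4 complexes overlap.

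Genes around the chain were given by lists of related function. Of 10 other nuclear genes of the chain, among them Cyc1 and Cycs (cytochromes c1 and c), 0 were higher and 1 lower. That gene was Atpif1, the inhibitor of ATP hydrolysis by complex V, at 884 ± 2.31 in BFP-negative against 652 ± 49.2 CPM in BFP-positive libraries (log2 fold change -0.44, SE 0.11, edgeR adjusted p = 0.0338). The call was lost when any 1 library was left out, with adjusted p from 0.0601 to 0.292. Dhodh, an enzyme of pyrimidine synthesis that feeds electrons to quinone, had 55.8 ± 6.20 and 39.6 ± 2.83 CPM and was not called. The list's median was -0.07.

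Assembly factors build the complexes without staying in them. Of 16 for complex I, 0 rose and 2 fell, with a median of 0.01. Acad9 fell from 131 ± 6.66 to 69.1 ± 1.74 CPM (log2 fold change -0.92, SE 0.15, edgeR adjusted p = 0.00392) and kept the call without each library in turn. Ndufaf4 fell from 75.8 ± 9.95 to 43.8 ± 3.31 CPM (-0.79, SE 0.19, edgeR adjusted p = 0.0228), a call lost without BFP-negative replicate 1 (adjusted p = 0.103) and without BFP-positive replicate 2 (adjusted p = 0.115). Of 35 tested factors for complexes II to V, 0 rose and 1 fell, with a median of -0.11. This was Uqcc1, a complex III factor, from 62.2 ± 10.5 to 34.6 ± 0.547 CPM (-0.85, SE 0.20, edgeR adjusted p = 0.0233). The call did not hold with BFP-negative replicate 2 left out (adjusted p = 0.127), nor with BFP-positive replicate 1 (0.0612) or 2 (0.0804) left out. Lrpprc, which stabilises mitochondrial mRNA, was at 48.2 ± 12.3 and 27.1 ± 3.06 CPM (-0.83, edgeR adjusted p = 0.0507).

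In the TCA cycle list, which supplies NADH and succinate to the chain, 1 of 21 genes rose and 0 fell, with a median of -0.05. Fh1, fumarate hydratase, the enzyme after complex II in the cycle, rose from 169 ± 12.7 to 315 ± 41.4 CPM (log2 fold change 0.90, SE 0.14, edgeR adjusted p = 0.00317) and kept the call without each library. Mdh2, the next enzyme, had 414 ± 25.8 and 331 ± 10.7 CPM and was not called (-0.32, SE 0.12, edgeR adjusted p = 0.124).

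Of 20 tested regulators of mitochondrial gene expression, 0 rose and 2 fell, with a median of -0.04. Myc, a transcription factor that promotes growth, fell from 142 ± 3.75 to 51.4 ± 10.4 CPM (log2 fold change -1.46, SE 0.18, edgeR adjusted p = 0.000628), also without each library. Twnk, the helicase of mitochondrial DNA, fell from 23.6 ± 1.44 to 10.2 ± 0.530 CPM (-1.20, SE 0.29, edgeR adjusted p = 0.0241), a call lost without BFP-negative replicate 1 or either BFP-positive replicate (adjusted p = 0.0625, 0.0809 and 0.0574). Of the factors whose motifs were searched, Nrf1 was at 24.9 ± 0.628 and 34.96 ± 0.200 CPM (0.49, SE 0.22, edgeR adjusted p = 0.200), Gabpa at 21.9 ± 7.04 and 16.5 ± 6.67 CPM and Yy1 at 16.0 ± 4.32 and 16.7 ± 6.67 CPM, none of them called.

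Mitochondrial protein import, which brings the members' proteins into the organelle, had the lowest median of these 6 lists of mitochondrial function, at -0.25. Of 26 genes 0 rose and 3 fell, and 22 had a negative log2 fold change, beside 6065 of 11706 tested genes. Tomm40, the outer membrane channel, fell from 218 ± 1.90 to 135 ± 6.18 CPM (-0.69, SE 0.13, edgeR adjusted p = 0.00842; 0.0617 without BFP-positive replicate 1). Chchd4, which folds imported proteins of the intermembrane space, fell from 134 ± 17.6 to 76.7 ± 8.44 CPM (-0.80, SE 0.17, edgeR adjusted p = 0.0128; 0.0514 without BFP-negative replicate 2 and 0.0826 without BFP-positive replicate 2). Hspa9, the matrix chaperone of the import motor, fell from 166 ± 13.5 to 115 ± 3.07 CPM (-0.52, SE 0.14, edgeR adjusted p = 0.0436). This call was lost without BFP-negative replicate 1 or either BFP-positive replicate (adjusted p = 0.164, 0.206 and 0.164). The calls of these lists, 1 to 3 genes each, are 2.86% to 12.5% of their tested genes, beside 11.1% of all tested genes.

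Of the mitochondrially encoded partners of the members, the count table gave values for the ribosomal RNAs mt-Rnr1 and mt-Rnr2 and matched none of 7 messenger RNA symbols searched. Both had a log2 fold change of -0.09 and were not called, and they made up 0.260% to 0.427% of all counts of a library.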

How the data were processed

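Reads were aligned with Subread and counted with featureCounts on GRCm38 (mm10), and limma was used, per the submitters' processing notes, which give no versions. RNA was made into cDNA with the SMART-Seq v4 kit, per the labels' protocols. Groups follow the BFP part of the titles, since the labels differ on CXCL10 for the BFP-negative cells. The authors deposited a table of raw read counts per gene and, for each library, log2 RPKM values. Checked against the counts, the deposited log2 RPKM were counts divided by the plain library total and a gene length. Counts were tested with edgeR 4.0.16 in R 4.3.3 (filterByExpr with a minimum count of 10 and a minimum total of 15, TMM, glmQLFit and glmQLFTest with group only, Benjamini-Hochberg over 11706 genes, adjusted p threshold 0.05, two-sided). CPM are TMM-scaled, and SE is the log2 fold change divided by the square root of F. The biological coefficient of variation was 24.7%, with 2 residual degrees of freedom. The scripts were tested on simulated counts. Alternatives were RLE factors, library totals, no filter, DESeq2 1.42.0, limma 3.58.1 (voom, and on log2 RPKM), robust dispersion, the replicate number as a block, and each library left out. Motifs were counted in RefSeq windows (GRCm38.p6).

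Members and lists were chosen with earlier results of these data known, and list counts support nothing independently. Named genes are, by rule, per complex the 2 most abundant members and those with the largest rise and fall, the isoform sets, the Sdh genes, Cox6a2, Cxcl10 and the 2 list members with the smallest p. Members at an unadjusted p under 0.05, other called list genes, Uqcrc1, Uqcrc2, Uqcrh, Ndufs8, Cox5b, Atp5c1, Nrf1, Gabpa and Yy1 were added after their values were seen.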

Additional observations from a re-analysis of the deposited data

How the results depend on the processing

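No member was called under RLE factors or with no filter. Members with a mean of at least 20 CPM were taken from the main fit without a new one. Their count of 0 called follows from that fit and is no further check. Members called higher numbered 1 with DESeq2, limma-voom and robust dispersion, each in complex III, and members called lower numbered 1 with library totals, DESeq2 and limma on log2 RPKM, each in complex V. With the replicate number as a block, 2 members were higher (1 in complex I, 1 in complex III) and 1 was lower (complex V): Uqcrfs1, Ndufa6 and Atp5g1, with adjusted p = 0.0100, 0.0483 and 0.0174. Each replicate number carries a title code shared by both groups (REX550, REX556), but the labels do not say what it marks, so the block was not made the main design. Replicate deviations correlated at r = 0.06 across all tested genes and 0.12 across members, with 2 pairs only. With the block, 760 genes of the whole table were lower (16.2% called in either direction). Without single libraries, all genes higher ran from 559 (without BFP-positive replicate 2) to 921, and all genes lower from 245 (without BFP-positive replicate 1) to 408.

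By library totals, and by limma on log2 RPKM, the median log2 fold changes were -0.063 and -0.064 in complex I, -0.094 and -0.094 in complex II, 0.033 and 0.034 in complex III, and -0.068 and -0.068 in complex V. Leaving out 1 library gave -0.054 to 0.045 in complex I, -0.11 to 0.080 in complex II, 0.061 to 0.16 in complex III, 0.031 to 0.25 in complex IV and -0.013 to 0.094 in complex V. The log2 ratio of the summed level was 0.019, and -0.047 by library totals. Cox7a2, at -0.00 with all libraries, ran from -0.19 (without BFP-positive replicate 1) to 0.23 (without BFP-negative replicate 1). In the lists of related genes, complex I assembly factors higher were 1 with DESeq2 and 1 with the block, and TCA cycle genes lower were 2 with the block. Assembly factors of complexes II to V lower were 2 with library totals, no filter, DESeq2, limma on log2 RPKM and robust dispersion, and 3 with the block. Import genes lower were 5 with the block. Without single libraries the numbers lower were 0 for other nuclear genes of the chain, 1 to 2 for complex I assembly factors, 0 to 2 for complexes II to V, 1 to 2 for regulators and 1 to 3 for import. The cause of these changes was not tested. With 2 libraries a group, the 95% interval of the fold change was within 1.5-fold for 62 of 78 members.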
